A study of Mus musculus with 136 samples.

Results

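The replication-type histone genes of the mouse were taken as every gene of the deposited expression table whose symbol begins with Hist1h, Hist2h, Hist3h or Hist4h. This gave 62 of 15196 genes: 6 for the linker histone H1, 18 for H2A, 13 for H2B, 12 for H3 and 13 for H4. They lie in 4 places, with 49 in the Hist1 cluster on chromosome 13 (21807581 to 24026782), 10 in the Hist2 cluster on chromosome 3 (96023838 to 96074115), 2 in Hist3 on chromosome 11 and 1 in Hist4 on chromosome 6, all in the mm9 build used by the table.

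Core histones H2A, H2B, H3 and H4 form the spool around which DNA is wound, and H1 binds where DNA enters and leaves it. Most genes of this kind have no introns, are transcribed in S phase to package newly made DNA, and give messages that end in a conserved stem-loop and carry no poly(A) tail. Libraries primed or selected on a poly(A) tail therefore see such messages poorly, while RNA still attached to chromatin contains them irrespective of the tail. A few of these genes also make polyadenylated messages, among others in cells that have stopped dividing.

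The cells were bone marrow-derived macrophages, grown from mouse marrow for 6 days in medium with 8% M-CSF, the growth factor that drives macrophage formation. The labels name wild-type mice (C57/B16) and Nfkb1-/-, Nfkbiz-/-, Bcl3-/- and Nfkbid-/- mice, which lack the NF-kB protein p105/p50 or one of 3 nuclear proteins of the IkB family. Chromatin-associated RNA was sequenced in 113 libraries. In the Nfkb1 and Nfkbid series it came from 3 replicates of knockout and of wild type, unstimulated and after 0.5, 1, 2 and 6 h of lipid A, an agonist of the receptor TLR4. The Nfkbiz and Bcl3 series had 2 replicates of the same design. In an ERK inhibitor series, wild-type cells pretreated with DMSO or ERKi were taken before and 15, 30 and 60 min after lipid A, and in a TNFa series wild-type cells received the cytokine TNFa for 0 to 6 h, with 1 library per condition in both. PolyA RNA was sequenced in 23 libraries: 9 of wild-type cells given lipid A or TNFa for 0 to 6 h (the mRNA series), 6 of control and IkBz-overexpressing cells left unstimulated or given TNFa or lipid A for 2 h, and 8 of cells labelled J2 BMDM at 0 and 2 h of lipid A. The J2 cells were wild type and Nfkb1-/- (1 library per time) or Nfkb1-/-, Nfkb2-/- (2 replicates per time). The labels do not give how J2 cells or overexpressing cells were made, which compound ERKi is, or the age of the mice, and they do not say whether replicates came from separate animals, so p-values measure the spread between these samples. The protocol given for all samples is one for RNA from chromatin, although 23 samples are labelled polyA.

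Depth bounded what could be measured. The chromatin libraries held 7.86 M to 45.3 M reads (median 28.8 M), recovered from the value that 1 read is worth in each library. The genes span 358 to 2667 bases, and 33 of the 62 had a median of at most 1 read over the chromatin libraries, and 9 had a median of at least 10. The 9 were Hist1h1a, Hist1h1b, Hist1h1c, Hist1h1d and Hist1h1e, Hist2h2ab and Hist3h2a of H2A, and Hist2h2bb and Hist2h2be of H2B. No H3 gene and no H4 gene reached it. In 4 pairs (Hist1h2ao with Hist1h2ap, Hist1h4m with Hist1h4n, Hist2h2aa1 with Hist2h2aa2, and Hist2h3c1 with Hist2h3c2) the spans overlapped another member, and their reads cannot be told apart here.

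The stem-loop was searched first, because it bears on which messages a polyA library can hold. It was searched by its 16 bases in the GENCODE transcripts of each gene (GRCm38 build), from the longest down to the first match. It was found in 44 of the 62 genes. It was present in 4 of 6 H1, 11 of 18 H2A, 8 of 13 H2B, 9 of 12 H3 and 12 of 13 H4 genes. The commonest form was shared by 24 genes, a form with 1 stem base pair exchanged by 7, all of them H4 genes, and a form with a changed loop by 6. The models of Hist1h1a, Hist1h1b, Hist2h2ab and Hist2h2bb held no match, which says only that these letters are not in the model. The 6 shown are among the genes described below whose transcript model runs on well past the stem-loop. Hist1h1d, whose model runs on for 4884 bases, and Hist1h4d, with 770, are not shown. The stem-loop is in capitals and 5 bases of flank in lower case on each side.
Hist1h1c: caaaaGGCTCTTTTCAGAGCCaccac
Hist1h1e: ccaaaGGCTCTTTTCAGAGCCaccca
Hist3h2a: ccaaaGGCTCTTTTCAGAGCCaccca
Hist1h4i: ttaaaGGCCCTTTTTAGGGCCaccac
Hist2h4: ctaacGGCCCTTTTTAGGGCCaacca
Hist4h4: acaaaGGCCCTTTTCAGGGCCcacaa
The transcript continued for 840 bases past the stem-loop in Hist1h1c, 1153 in Hist1h1e, 1643 in Hist3h2a, 330 in Hist1h4i, 1257 in Hist2h4 and 2445 in Hist4h4. In Hist1h2ap, Hist1h2bj and Hist1h4f it continued for 3, 23 and 33 bases. Hist2h2be, which encodes an H2B, had a transcript of 2620 bases in which no stem-loop was found.

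Near-identical copies limited the assignment of reads. The share of 50-base windows in the longest transcript of a gene that also occur in another gene had a median of 49.6% over the 62 genes. It was lowest for H1 (median 1.13%, range 0 to 32%) and higher for H2A (median 73.0%), H3 (62.0%), H2B (49.7%) and H4 (39.5%). Among the 9 genes with at least 10 reads the median was 8.54%, with 53.6% in Hist2h2bb, 32% in Hist1h1e and 31.5% in Hist3h2a, and among the 33 genes with at most 1 read it was 63.5%. How the authors counted reads that fit several places is not given in the sources used here, so levels of H2A, H3 and H4 genes, and those of these 3, are uncertain to that extent.

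Promoters were compared because several of these genes moved together after lipid A, as described below. RefSeq sequences from 250 bases before to 50 bases after the start (GRCm38.p6) were matched by gene ID for 58 of 62 genes, and were searched on both strands for 4 motifs, none of which contains another. CCAAT was in 84.5% of the 58 against 37.4% of all 32851 promoters of the same length, and TATAAA in 58.6% against 13.6%. CCAAT was in all 6 H1, 18 H2A, 12 H2B and 10 H3 promoters and in 3 of 12 H4 promoters. AAACACA, known as the H1 box, was in 5 of 6 H1 promoters and in 15.5% of the 58, against 7.18% of all. The octamer ATTTGCAT was in 7 of 18 H2A and 6 of 12 H2B promoters, in none of the H1, H3 and H4 promoters, and in 1.74% of all. The 4 shown are from genes whose levels are described below, of which Hist1h1b, Hist1h1c and Hist2h2bb were lower at 6 h of lipid A and Hist3h2a was not. Capitals mark these motifs on either strand, and each sequence is given on the strand of its gene.
Hist1h1b (chr13:21780576-21780875, minus strand): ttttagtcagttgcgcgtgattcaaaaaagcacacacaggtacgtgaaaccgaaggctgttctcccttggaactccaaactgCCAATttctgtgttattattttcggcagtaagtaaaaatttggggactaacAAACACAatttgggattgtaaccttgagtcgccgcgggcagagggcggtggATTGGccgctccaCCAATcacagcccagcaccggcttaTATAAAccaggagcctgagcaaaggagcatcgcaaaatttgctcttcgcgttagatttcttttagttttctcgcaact
Hist1h1c (chr13:23738557-23738856, plus strand): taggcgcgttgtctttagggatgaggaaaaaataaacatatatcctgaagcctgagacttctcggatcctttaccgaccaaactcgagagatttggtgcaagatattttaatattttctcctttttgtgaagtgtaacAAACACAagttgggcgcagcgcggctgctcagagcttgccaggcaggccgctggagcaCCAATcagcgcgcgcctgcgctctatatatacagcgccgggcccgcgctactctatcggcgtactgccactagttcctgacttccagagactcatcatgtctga
Hist2h2bb (chr3:96269450-96269749, plus strand): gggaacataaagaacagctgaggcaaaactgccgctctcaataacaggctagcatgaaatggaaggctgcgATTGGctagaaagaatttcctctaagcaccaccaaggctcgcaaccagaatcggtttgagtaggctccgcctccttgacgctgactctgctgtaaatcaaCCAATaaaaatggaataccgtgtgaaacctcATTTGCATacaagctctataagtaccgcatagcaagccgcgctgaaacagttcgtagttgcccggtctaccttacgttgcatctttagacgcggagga
Hist3h2a (chr11:58954435-58954734, plus strand): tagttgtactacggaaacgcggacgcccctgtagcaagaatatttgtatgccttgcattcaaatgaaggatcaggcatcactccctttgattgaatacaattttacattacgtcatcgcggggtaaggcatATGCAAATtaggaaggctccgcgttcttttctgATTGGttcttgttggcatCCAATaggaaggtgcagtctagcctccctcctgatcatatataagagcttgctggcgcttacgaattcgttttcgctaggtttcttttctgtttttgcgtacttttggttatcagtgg

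One set of libraries stood apart and is given before the results. Replicate 1 of the Nfkbid series, in both genotypes and at all 5 times (10 libraries), is labelled chromatin RNA. Malat1, a nuclear RNA, was at 6.92 to 19.4 RPKM there (reads per kilobase of gene, scaled to the reads of the library), against 229.6 to 2863 in the other 103 chromatin libraries and 27.9 to 327 in the polyA libraries. The summed level of 5 macrophage markers was 612 to 3185 in these 10 libraries, 9.48 to 161 in the other chromatin libraries and 3060 to 16840 in polyA. The sum of 6 granulocyte precursor markers was 1.55 to 7.95, 0.0505 to 0.226 and 0.243 to 109 in the same order. The sum of 4 stromal markers was 0.706 to 3.98 in these libraries and 0.00829 to 1.47 in the other chromatin libraries. Every marker of lymphocytes (4 genes), mast cells (4), dendritic cells (2) and erythroid cells (3) had a median below 0.5 RPKM in all 3 sets of libraries. What sets this replicate apart was not tested.

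The histone genes themselves separated these libraries. The ratio of Hist1h1c to Hist1h1b, both linker histones, was 0.523 to 2.96 (median 0.749) in 11 wild-type chromatin libraries at 0 h, 3.64 to 685 (median 100.4) in the 23 polyA libraries and 35.1 to 261 (median 140.0) in the 10 libraries. At 0 h in wild type the replicate had Hist1h1b at 0.0938 RPKM where the other libraries had 1.12 to 21.2, and Hist3h2a at 16.4 where they had 1.43 to 4.91. Tests in which this replicate took part are given with and without it.

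In unstimulated wild-type chromatin RNA, the H1 genes held the largest share. Without replicate 1 of the Nfkbid series, the summed level of all 62 genes in 11 libraries was 18.4 to 124 RPKM (median 51.4), of which H1 made up a median of 40.0%, H2B 17.7%, H2A 17.4%, H4 14.8% and H3 6.48%. Averaged over the 103 chromatin libraries of all conditions other than that replicate, Hist2h2bb had 3.54 RPKM, Hist1h1b 3.12, Hist1h1e 3.02, Hist1h1c 2.79, Hist3h2a 2.70, Hist1h1a 2.08, Hist1h1d 1.88 and Hist2h2ab 1.41. With its 10 libraries included, Hist3h2a (3.92) and Hist1h1c (3.54) stood above Hist2h2bb (3.24). In the 103, the highest H4 genes were Hist2h4 at 1.12 and Hist1h4d at 0.886, the highest H3 genes were Hist1h3d at 0.352 and Hist1h3b at 0.323, and Hist2h2be, at 0.396, was the second H2B gene. RPKM is per length, so that these levels can be set side by side, within the limit of shared sequence given above.

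In the Nfkb1 and Bcl3 series the level differed between replicates, in both genotypes. In the Nfkb1 series at 0 h, Hist1h1b was at 5.86, 1.12 and 4.38 RPKM in the 3 wild-type replicates and at 5.56, 0.706 and 5.39 in the 3 knockouts. In the Bcl3 series it was at 2.03 and 6.90 in wild type and at 1.91 and 16.3 in the knockout. In replicates 2 and 3 of the Nfkbid series it was at 5.68 and 21.2 in wild type and at 7.73 and 11.3 in the knockout. Replicate 2 of the Nfkb1 series and replicate 1 of the Bcl3 series were thus low in both genotypes. Top2a, a topoisomerase of dividing cells, followed: it was at 4.0, 1.44 and 6.12 in the Nfkb1 wild types and at 2.47 and 4.98 in the Bcl3 wild types. Over 18 unstimulated chromatin libraries of the 4 series, the correlation of log2 levels with Top2a (Pearson's r) was 0.893 for Hist1h1d, 0.872 for Hist1h1a, 0.872 for Hist2h2bb and 0.863 for Hist1h1b, and lower for Hist2h2be (0.600), Hist2h2ab (0.433) and Hist3h2a (0.385). These are descriptions: libraries of 1 replicate number share their series and depth, and the part of cell division in the level was not tested. Fewer cells with a message and less message per cell cannot be told apart in RNA from bulk cells.

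**Figure D1:**
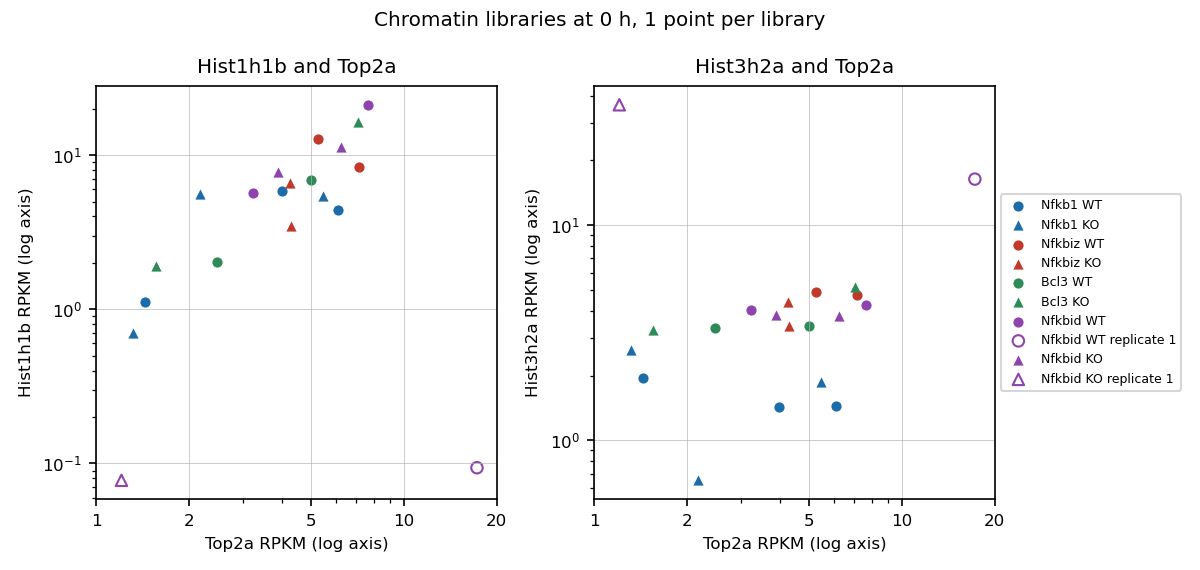
Level of Hist1h1b and Hist3h2a (RPKM, log axis) against the level of Top2a (RPKM, log axis) in unstimulated chromatin RNA of the 4 knockout series, 1 point per library. Hist1h1b followed Top2a (r = 0.863) more closely than Hist3h2a did (r = 0.385), and replicate 1 of the Nfkbid series is drawn apart and left out of both values.

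PolyA RNA held a different set of histone genes than chromatin RNA did. To compare them, 12 wild-type chromatin libraries and 2 polyA libraries of unstimulated cells (mRNA series and overexpression control) were tested with limma on log2(RPKM + 0.5), calling genes with an adjusted p (Benjamini-Hochberg over all genes) below 0.05 and a difference of at least 2-fold. Of 6356 genes tested, 85.9% were higher in polyA RNA and 1.32% lower, with a median difference of 2.60 on the log2 scale. Of the 21 histone genes tested, 2 were higher and 4 lower, with a median of −0.22, and 12 were below 0, as were 5.73% of all genes. Chromatin values are per kilobase of the whole gene span, introns included, and most genes other than these have introns. The part of that in the shift of all genes was not tested, but among genes with a span of at most 3 kb the same numbers of histone genes, 4 lower and 2 higher, were called, beside 4.59% and 50.4% of the 1046 genes of that size.

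Hist1h1c, the linker histone H1.2, was higher in polyA RNA, by 2.86 ± 0.54 (SE) on the log2 scale (adjusted p = 0.000134). It was at 40.9 and 35.7 RPKM in the 2 polyA libraries and at 1.81 to 12.9 (median 4.50) in the 12 chromatin libraries. These groups did not overlap, but the share of all genes without overlap was not counted. The difference of Hist1h1c lay near the median of 2.60 for all genes, and that of Hist1h4i, given next, lay below it. Hist1h4i, an H4 gene, was the other one, at 1.61 and 3.22 against 0.244 to 1.37 (median 0.662), a difference of 1.20 (adjusted p = 0.00378). Hist3h2a, an H2A gene, was at 7.43 and 10.3, and at 1.43 to 4.91 in the chromatin libraries other than replicate 1 of the Nfkbid series. Its difference of 1.25 missed the threshold with that replicate (adjusted p = 0.0568) and passed without it (1.45, adjusted p = 0.0031). Hist2h2be was at 2.42 and 3.19, with 0.88 (adjusted p = 0.0632), and stayed under 2-fold without the replicate. The transcript models of Hist1h1c, Hist3h2a and Hist1h4i run on past the stem-loop, as given above. So do those of Hist1h1d, Hist1h1e, Hist2h4 and Hist4h4, which were not called higher.

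The other H1 genes and Hist2h2bb went the opposite way. Hist2h2bb was at 0.195 and 0.297 RPKM in polyA RNA and at 1.80 to 16.1 (median 5.26) in 11 chromatin libraries, a difference of −2.77 ± 0.88 (adjusted p = 0.0080). Hist1h1d was at 0.226 and 0.283 against a median of 4.36 in the same 11 (−2.16 ± 0.84, adjusted p = 0.0241). Hist1h1a was at 0.257 and 0.196 against a median of 3.07 (−2.07, adjusted p = 0.0340). The fourth was Hist4h4, an H4 gene outside the clusters, at 0.10 and 0.0416 against 1.08 (−1.48, adjusted p = 0.0101), although its model runs 2445 bases past the stem-loop. Hist1h1b (−1.84, adjusted p = 0.0835) and Hist1h1e (−1.65, adjusted p = 0.0655) missed the threshold and were called without replicate 1 of the Nfkbid series (−2.11 and −1.91). In that fit 6 histone genes were lower and 3 higher, against 1.91% and 86.1% of all genes.

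**Figure D2:**
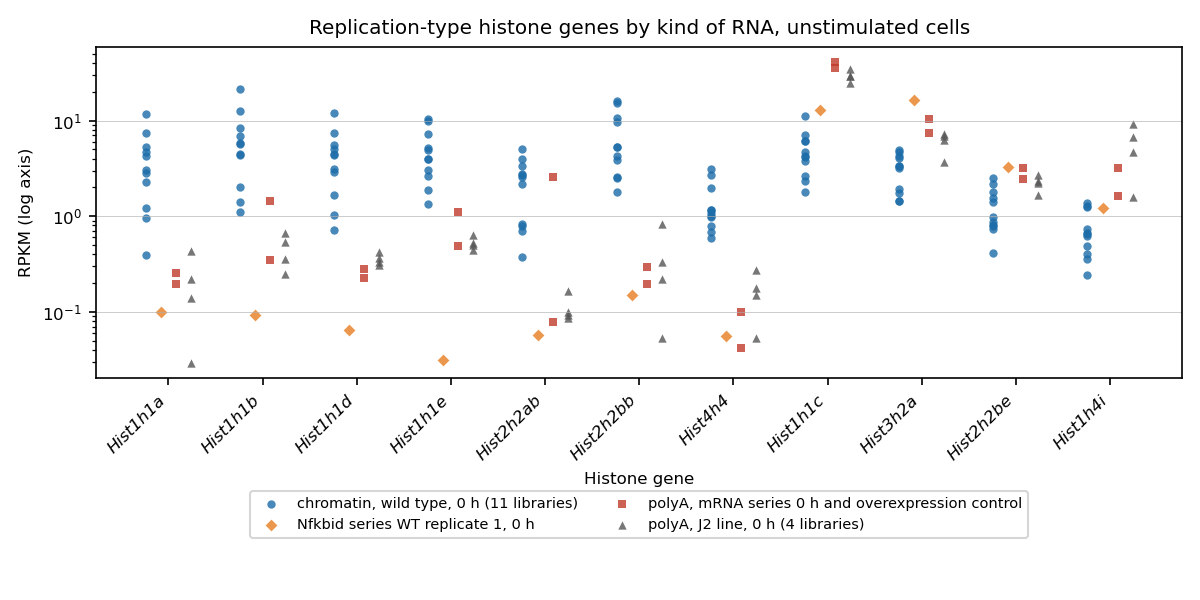
Level (RPKM, log axis) of 11 histone genes in unstimulated wild-type chromatin RNA and in polyA RNA of primary and J2 cells, 1 point per library. Hist1h1c, at 40.9 and 35.7 in polyA RNA of the first 2 libraries, lies above every chromatin library. Of all genes tested 85.9% were called higher in these 2 polyA libraries, with a median log2 difference of 2.60. In the same 2 libraries Hist2h2bb, Hist1h1a and Hist1h1d lie below the chromatin libraries other than replicate 1 of the Nfkbid series.

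Centring each library on its median gene, which removes the shift of 2.60, left no histone gene higher and made 20 of 21 lower, where 18.4% of all genes were higher and 22.7% lower. Hist1h1c then differed by 0.14 and Hist1h4i by −1.52. The order among genes was kept, and so was the sign for Hist1h1c but not for Hist1h4i. The 2 polyA libraries also differed from each other: Hist2h4 was at 11.04 RPKM in the mRNA series and 0.143 in the overexpression control, and a gene with no read is listed in the mRNA series at a fixed value above 0 (2.54 for Hist2h2ab). Such values entered the test as levels. Setting them to 0 left 20 histone genes tested, 6 lower and 2 higher, beside 3.82% and 85.5% of all genes. With the mRNA library alone 5 genes were higher and 1 lower (Hist2h2bb), beside 81.2% and 0.854% of all genes. With the overexpression control alone 2 were higher and 3 lower (Hist2h2ac, Hist2h4 and Hist4h4), beside 82.6% and 2.21%.

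Genes of related function followed the shift of all genes. All 6 replication-independent histone variants tested were higher in polyA RNA (median 3.68), as were 7 of 7 genes of histone message processing and decay (2.62), 17 of 18 of DNA replication and 7 of 8 histone chaperones. Among these variants, H1f0 was higher by 4.16 and H3f3b by 3.95. Of 4 nuclear-retained RNAs 3 were lower (median −2.91), as a check of the labelled kinds of RNA.

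J2 cells showed the same order. At 0 h Hist1h1c was at 29.6 RPKM in wild type, 34.4 in Nfkb1-/- and 24.8 and 29.5 in the double knockout, while Hist1h1b was at 0.361, 0.664, 0.248 and 0.535. Hist3h2a was at 6.27, 7.19, 3.70 and 6.92. Hist1h1c was thus the most abundant of these 3 in all 4 libraries, and lay below both unstimulated primary libraries in each.

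After lipid A, histone genes in wild-type chromatin RNA were lower or not called. The 10 wild-type replicates of the 4 series (50 libraries) were fitted with series as a term, and 17 histone genes were among 5893 tested. At 0.5 h 1 was lower (13.7% of all genes were), at 1 h 5 (15.4%), at 2 h 3 (16.7%) and at 6 h 7 (13.4%), which made 8 different genes. None was higher, where 4.62%, 5.21%, 7.94% and 7.31% of all genes were. The medians of the 17 were −0.56, −0.75, −0.76 and −0.91 on the log2 scale, beside −0.47, −0.39, −0.40 and −0.35 for all genes.

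Hist2h2be was called at all 4 times. Without replicate 1 of the Nfkbid series Hist1h1d was as well, with −1.003 at 0.5 h (adjusted p = 0.0042). In the 9 libraries other than that replicate, Hist2h2be was at 0.409 to 2.48 RPKM (median 1.42) at 0 h. At 0.5 h it was at 0.0370 to 0.634 (median 0.201), followed by medians of 0.113 (0.0579 to 0.219), 0.0980 (0.0321 to 0.194) and 0.226 (0.0693 to 0.528) at the later times. In all 10 replicates it was below its own 0 h level at each of the 4 times. On the log2(RPKM + 0.5) scale, which understates the change of low genes, the differences were −1.22 ± 0.19 (adjusted p = 4.68e-07), −1.46, −1.55 and −1.35 (adjusted p = 5.42e-08) in order of time.

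Hist3h2a had a different course. Over the same 9 libraries the unstimulated median of 3.39 RPKM (1.43 to 4.91) was followed by 1.27 (0.641 to 2.70) at 0.5 h and 1.30 (0.305 to 4.14) at 1 h, then by 5.74 (2.53 to 8.08) at 2 h and 4.35 (1.29 to 5.74) at 6 h. Of the 10 replicates 10, 9, 1 and 4 were below their own 0 h level at the successive times. The difference of −0.91 at 0.5 h was under 2-fold (adjusted p = 0.0029), and that of −1.01 at 1 h passed (adjusted p = 0.0010). The later ones were 0.46 (adjusted p = 0.128) and 0.09. The call at 1 h rests on the 2-fold limit: without replicate 1 of the Nfkbid series the difference was −0.99 and no longer passed, and at 2 h it was 0.55 (adjusted p = 0.0019, under 2-fold).

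The linker histones were lowest at 6 h. Ranges and medians here leave out replicate 1 of the Nfkbid series. Hist1h1b was at 1.12 to 21.2 RPKM (median 5.86) at 0 h. Its medians were 3.23, 1.64, 2.11 and 0.914 at 0.5, 1, 2 and 6 h (range at 6 h 0.0869 to 2.56). Hist1h1c was at 1.81 to 11.1 (median 4.75) at 0 h and 0.333 to 2.96 (median 1.87) at 6 h. Both were below their own 0 h level at 6 h in these 9 replicates, although the groups overlapped across replicates. The share of all genes with this was not counted. In replicate 1 of the Nfkbid series Hist1h1b was near its lowest measurable level at both times (0.0938 and 0.0687), and Hist1h1c went from 12.9 to 2.41. The fitted changes at 6 h were −1.96 ± 0.40 for Hist1h1d (adjusted p = 4.42e-05), −1.95 for Hist1h1b, −1.63 for Hist1h1a, −1.50 for Hist1h1c, −1.48 for Hist2h2bb, −1.35 for Hist2h2be and −1.04 for Hist2h4, an H4 gene (adjusted p = 0.00124). Hist1h1e, at −0.91, was not called (adjusted p = 0.0809), but was without replicate 1 of the Nfkbid series (−1.01, adjusted p = 0.0034).

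**Figure D3:**
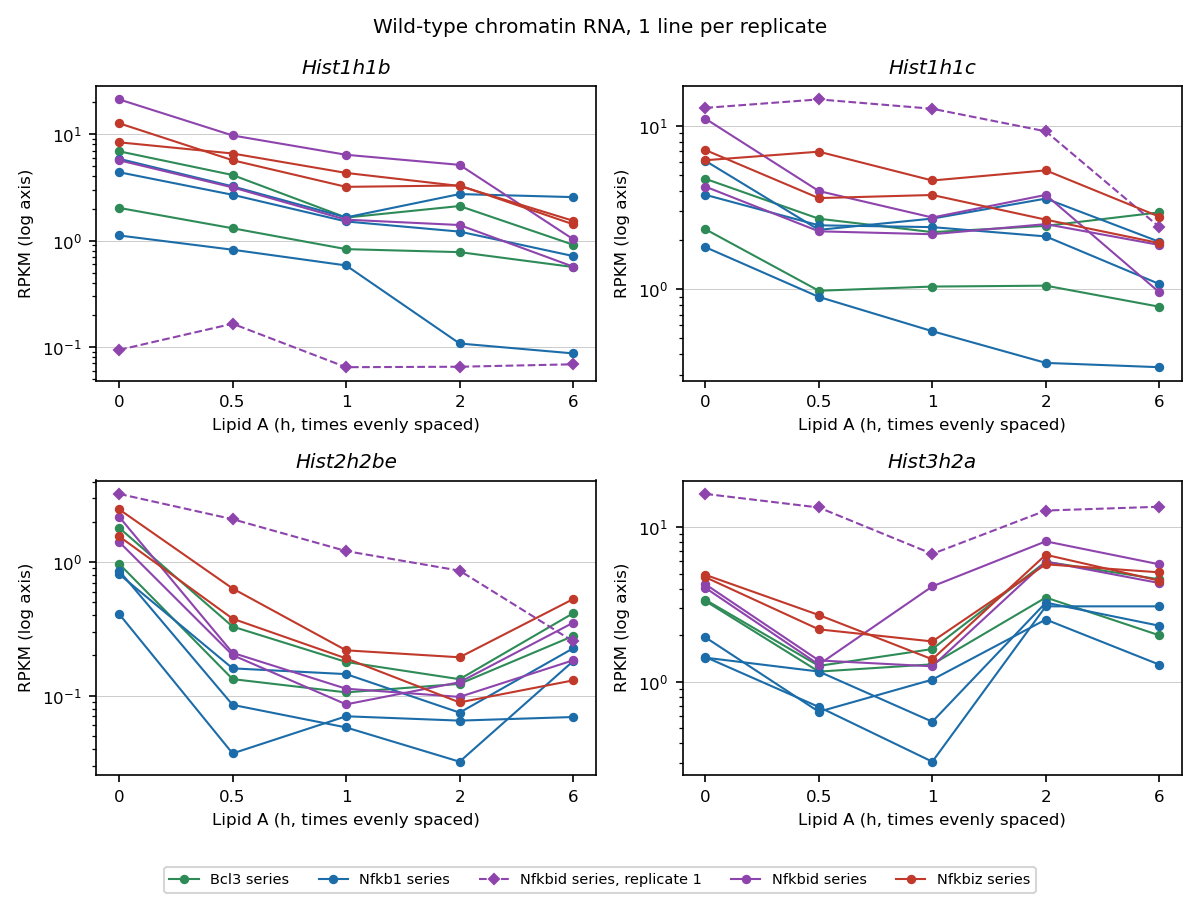
Level (RPKM, log axis) of Hist1h1b, Hist1h1c, Hist2h2be and Hist3h2a in wild-type chromatin RNA after 0 to 6 h of lipid A (times evenly spaced), 1 line per replicate and 1 colour per series. Hist2h2be dropped in every replicate by 0.5 h, and Hist3h2a dropped and was back by 2 h in the 9 replicates drawn as solid lines. Replicate 1 of the Nfkbid series (dashed) lies outside the range of the others at every time for Hist1h1b and Hist3h2a. At 6 h it lies within that range for Hist1h1c and Hist2h2be.

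Replicate, series and scaling touched these counts. Without replicate 1 of the Nfkbid series 2, 6, 7 and 9 genes were lower at the 4 times (20.1%, 20.1%, 20.5% and 15.0% of all genes), 11 different ones, of which 7 were among the 8. Within a series, 13 of 15 histone genes were lower at 1 time or more in the Nfkbiz wild types (40.4% of all genes were), 6 of 10 in Bcl3 (46.4%), 2 of 10 in Nfkb1 (36.2%) and 0 of 13 in Nfkbid (1.56%). Over the 4 series together the 8 of 17 stood beside 29.9% of all genes. With libraries centred on their median gene 5 of the 8 stayed (9.49% of all genes were lower), though at 6 h Hist2h2be was then under 2-fold (−0.94): Hist1h1a, Hist1h1b, Hist1h1c, Hist1h1d and Hist2h2be.

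Genes that act with histones in dividing cells were lower at 6 h as well. Of 14 tested genes of mitosis all were lower (median −1.76 on the log2 scale), with Top2a at −2.32 and Mki67, a marker of proliferating cells, at −1.81. Of 16 genes of DNA replication 8 were lower (median −1.02), among them Rrm2, which makes deoxynucleotides, at −1.76 and Mcm3 of the replicative helicase at −1.53. Of 8 histone chaperones 5 were lower, among them Nap1l1 (−1.50), Asf1b (−1.27) and Chaf1b (−1.18). No gene of the 6 tested for histone message processing and decay passed both limits (median −0.61), with Eri1, a nuclease of histone messages, at −0.96 and Npat, the activator of histone gene transcription, at −0.47. Of 5 replication-independent histone variants H2afx was lower (−1.63) and H3f3b, which encodes H3.3, was higher (1.13). Of 5 macrophage markers Mrc1 (−2.67) and Csf1r (−1.80) were lower and Fcgr1 (2.24) was higher. Mki67 did not follow the early part of the course: its median was 9.47 RPKM at 0 h, 14.9 at 0.5 h and 2.10 at 6 h. The part of cell division in the histone course was not tested.

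In cells without IkBz, the product of Nfkbiz, 5 histone genes were called lower, 1 at 2 h and 4 at 6 h of lipid A. The test covered 15 histone genes of 4885. At 2 h 1 was lower (1.19% of all genes) and at 6 h 4 (3.62%). None was lower at 0, 0.5 and 1 h (0%, 0% and 0.553% of all genes), where 10, 5 and 1 of 15 had an unadjusted p below 0.05. The share of all genes at that unadjusted p was not counted. The 15 genes were measured in the same libraries, so these counts are not of independent tests. None was higher at any time, as 0.123%, 0.184% and 1.84% of all genes were at 1, 2 and 6 h. At 2 h Hist2h4 was at 1.92 and 1.42 RPKM in wild type and 0.543 and 0.288 in the knockout, a difference of −1.25 ± 0.26 (adjusted p = 0.0194). At 6 h Hist2h2bb was at 4.63 and 2.94 in wild type and 0.671 and 0.978 in the knockout (−1.67 ± 0.46, adjusted p = 0.0256). Hist1h1b was at 1.53 and 1.42 against 0.0379 (1 read or none) and 0.477 (−1.45, adjusted p = 0.0378). The groups did not overlap in any of these 3. Hist1h1e was at 3.46 and 3.70 against 1.35 and 1.32 (−1.15, adjusted p = 0.0359), and Hist1h1a at 0.869 and 1.48 against 0.242 and 0.323 (−1.07, adjusted p = 0.0440), again without overlap. Between 2 and 2 libraries, lack of overlap adds little to these calls, and its share over all genes was not counted.

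The direction was shared by nearly all tested histone genes. All 15 were below 0 at 0, 0.5, 2 and 6 h, and 11 were at 1 h, where 65.9%, 71.2%, 66.0%, 73.6% and 64.2% of all genes were. Medians of the 15 were −0.96, −0.74, −0.27, −0.90 and −0.48 at 0, 0.5, 1, 2 and 6 h, beside −0.07, −0.09, −0.08, −0.09 and −0.24 for all genes. The lowest p at 0 h were those of 3 H4 genes, Hist1h4h (−0.97, adjusted p = 0.410), Hist2h4 (−0.99) and Hist4h4 (−1.16). For Hist1h1b at 0 h the knockout was within the range of the other wild types. It was at 3.49 and 6.57 in the Nfkbiz knockout, 8.38 and 12.7 in its own wild type, and 1.12 to 21.2 in the wild types of the other series without replicate 1 of Nfkbid. At 6 h the knockout was at 0.0379 and 0.477, where wild types without that replicate were at 0.0869 to 2.56. Cell cycle genes went the same way: 3 of 14 mitosis genes, Mki67, Top2a and Cdk1, were lower at 6 h (median −0.67), and Mki67 was at 4.78 and 2.24 RPKM in wild type and 1.32 and 0.967 in the knockout. Their part in the result was not tested.

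**Figure D4:**
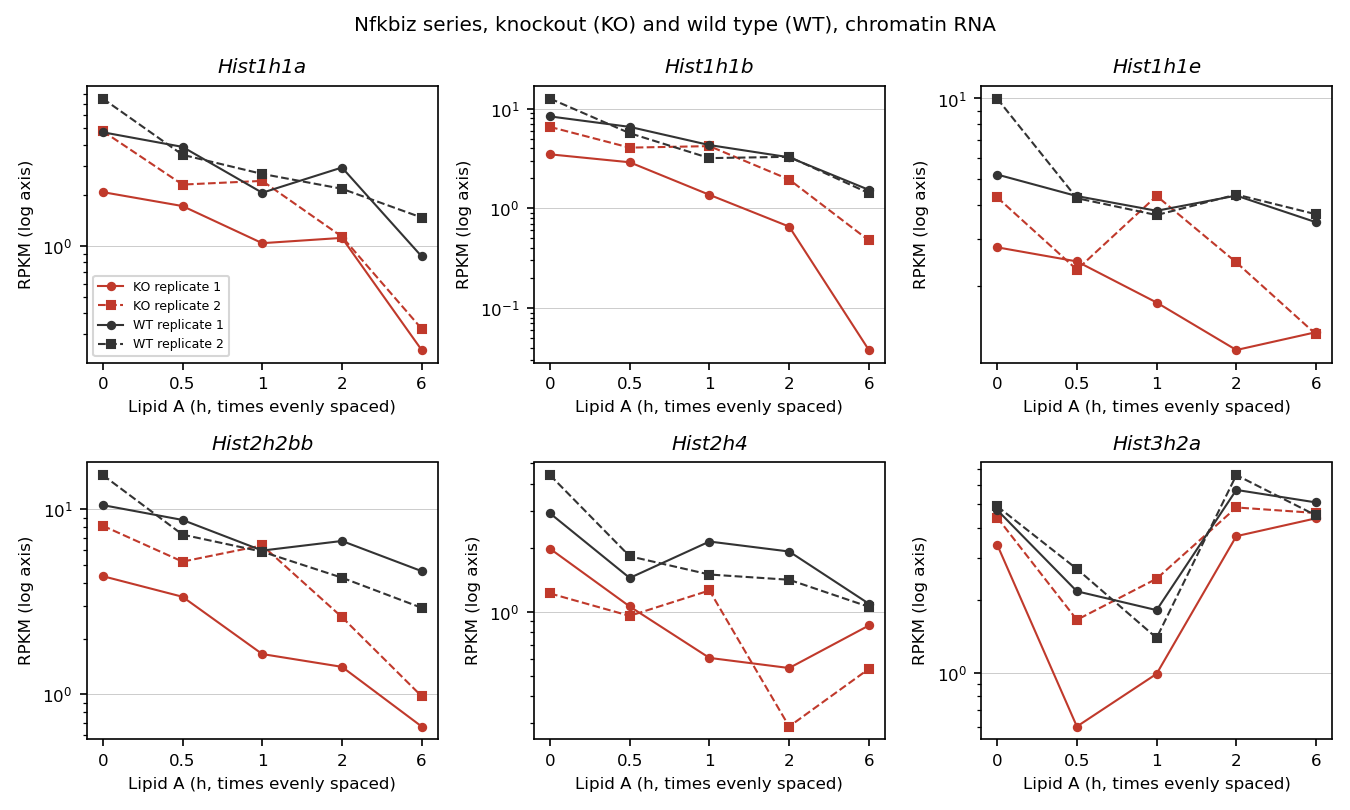
Level (RPKM, log axis) of 6 histone genes in chromatin RNA of the Nfkbiz series after 0 to 6 h of lipid A (times evenly spaced), 1 line per replicate of wild type (black) and knockout (red). Both knockout replicates lie below both wild types for Hist2h2bb and Hist1h1b at 6 h and for Hist2h4 at 2 h.

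The calls rest on 2 replicates per genotype. Leaving out either wild-type replicate left 0 calls, and leaving out knockout replicate 1 or 2 left 1 or 2, with the lone library taken to vary like the others. Without a filter on low values 0 were called. With libraries centred on their median gene Hist2h4 at 2 h and Hist2h2bb at 6 h were still called, and a difference between this and the other knockouts was not tested.

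No histone gene was called in the other lines. The Nfkb1 knockout (11 genes tested), the Bcl3 knockout (11) and the Nfkbid knockout (14) gave 0 calls with limma at any time, and 0 of 55, 0 of 55 and 0 of 70 tests of a gene at a time had an unadjusted p below 0.05. These p-values leave out the pairing of samples by replicate number. With replicates as a block there were again 0 calls of histone genes. In Nfkb1 2.03% of all genes were then lower at 1 time or more, against 0.906% without the block. Single p-values of the block fit are not given. Differences ran from −0.95 to 0.80 in Nfkb1, from −0.59 to 0.65 in Bcl3 and from −0.53 to 0.64 in Nfkbid. Of all genes 0%, 0.0663%, 0.597%, 0.376% and 0.221% were lower in Nfkb1 at 0, 0.5, 1, 2 and 6 h, and 0.0442% and 0.0884% higher at 1 and 6 h. In Bcl3 and Nfkbid 0% of all genes were called, so that a count of 0 is no result about histone genes there. The lowest unadjusted p in Nfkb1 was that of Hist2h2ac at 0.5 h (−0.69), followed by Hist2h2bb (0.80) and Hist3h2a (0.46) at 1 h. In Bcl3 it was that of Hist2h2ab at 0.5 h (−0.59), and in Nfkbid that of Hist1h4i at 6 h (−0.53). Without replicate 1 of both genotypes, the Nfkbid knockout again gave 0 calls (16 histone genes tested, 0% of all genes called), with 2 of 80 tests at an unadjusted p below 0.05 and differences from −0.57 to 1.01. Leaving out a Bcl3 replicate leaves 1 library in that genotype at each time, so calls of such fits are not given. The J2 double knockout gave 0 of 7 at either time (0% of all genes), with differences from −0.65 to 1.52 and 0 of 14 tests at an unadjusted p below 0.05.

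In J2 cells, 2 h of lipid A gave no call among 7 histone genes (0.715% of all genes lower, 2.33% higher), and 1 had an unadjusted p below 0.05. That was Hist2h2be, which went from 2.24 to 0.793 RPKM in wild type, 2.33 to 0.876 in Nfkb1-/-, and 1.65 to 0.732 and 2.68 to 1.05 in the double knockout. It was lower in 4 of 4 pairs, with a difference of −1.02 (adjusted p = 0.108). Hist1h1c did not show this (0.17, adjusted p = 0.518).

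The remaining series had 1 library per condition, and their differences between conditions were not tested and are descriptions. In the mRNA series the polyA level of Hist1h1c was 40.9 RPKM at 0 h and 61.7, 50.8, 67.1 and 5.41 after 0.5, 1, 2 and 6 h of lipid A. With TNFa it was 71.2, 69.1, 63.1 and 8.71 at the same times. It was high to 2 h and low at 6 h with both agents. In chromatin RNA it was below its own 0 h level already at 1 h of lipid A in 9 of 9 replicates, leaving out replicate 1 of the Nfkbid series. That replicate had 12.9 and 12.8 RPKM at these times. The change at 1 h was not called (−0.94 without it, under 2-fold), and 70.1% of all genes were below 0 in that fit. In polyA RNA Hist2h2be went from 2.42 to 1.48, 1.15, 0.807 and 0.305 with lipid A, and to 2.00, 2.46, 1.64 and 1.14 with TNFa. Hist3h2a went from 7.43 to 6.29, 4.55, 3.41 and 7.80 with lipid A and to 7.39, 5.81, 4.56 and 8.11 with TNFa, lowest at 2 h, where its chromatin level was back. Counts over members are not given for this series, because many sit at the fixed value that stands for no read.

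**Figure D5:**
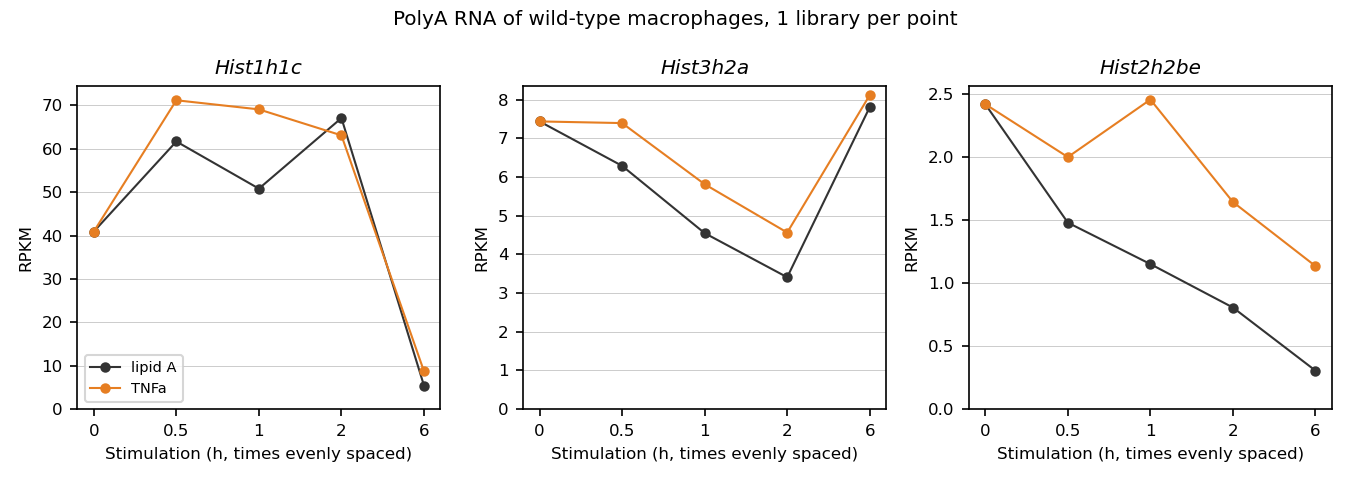
Level (RPKM, linear axes from 0) of Hist1h1c, Hist3h2a and Hist2h2be in polyA RNA of wild-type macrophages after 0 to 6 h of lipid A or TNFa (times evenly spaced), 1 library per point. Hist1h1c was at 5.41 and 8.71 at 6 h against 40.9 at 0 h, and Hist2h2be was lower with lipid A than with TNFa at each time.

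The ERK inhibitor series gave shorter times. With DMSO, Hist2h2be was at 0.781, 0.190, 0.0513 and 0.0702 RPKM at 0, 15, 30 and 60 min of lipid A, and with ERKi at 0.624, 0.107, 0.0329 and 0.0584. Most of the drop was thus present at 15 min with and without the inhibitor. Hist3h2a was at 3.2, 1.99, 1.17 and 0.885 with DMSO and at 3.58, 1.28, 0.863 and 1.46 with ERKi. Hist1h1c was at 4.20, 3.23, 0.692 and 0.465 with DMSO.

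In the TNFa series chromatin RNA was taken to 6 h. Hist1h1b was at 4.43, 5.32, 4.94, 2.73 and 2.70 RPKM at 0, 0.5, 1, 2 and 6 h, and Hist2h2be at 0.729, 0.384, 0.473, 0.357 and 0.355. Hist3h2a was at 1.76, 1.76, 1.75, 1.19 and 1.96 and did not show the early dip seen with lipid A. The difference between the 2 agents was not tested.

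In the overexpression series, polyA Hist1h1c was between 27.4 and 35.7 RPKM in all 6 libraries. Hist2h2be was lower with IkBz overexpression than in its control under each condition: 1.63 against 3.19 unstimulated, 1.24 against 2.52 with TNFa and 0.654 against 2.05 with lipid A. Mki67 was lower as well in each pair, at 43.9 against 76.6, 57.8 against 80.6 and 51.4 against 75.7, and its part was not tested.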

How the data were processed

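The authors deposited 1 table of RPKM values (reads per kilobase of gene, scaled to the library) for 15196 genes in 136 libraries, with gene positions in mm9. HISAT2, SAMtools and mm9 are named in the submitters' processing notes, and the counting rule is not given in the sources used here. Depth was recovered from the step that 1 read makes, with 97.4% to 100% of chromatin values of up to 30 reads within 0.02 of a whole number. Genes with 0 and with 1 read share a value in the chromatin libraries. Groups were taken from the labels. Values were tested as log2(RPKM + 0.5) with limma 3.58.1 in R 4.3.3 (trended variance, 2-sided) and adjusted over all genes tested. In the knockout series, genes at 1 RPKM in as many libraries as a genotype has replicates were kept. The other fits, the wild-type course included, kept genes at 1 RPKM in any 2 libraries. The fit was tested on simulated data. The genes named are the 2 most abundant of each class, those called and, where none was, those with the lowest p. The histone genes and all gene lists were chosen with earlier results of these data known. Samples with the same replicate number deviated together (correlation of residuals 0.61 to 0.92 over 15 pairs in the Nfkb1 series, 0.45 to 0.73 over 10 in Nfkbiz, 0.27 to 0.76 over 10 in Bcl3 and 0.89 to 0.97 over 15 in Nfkbid), so the numbers pair the samples. Alternatives were pseudocounts, filters, median centring, replicate blocks, leaving out libraries and setting the fixed values of the mRNA series to 0.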

Additional observations from a re-analysis of the deposited data

Results flagged for a closer look

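In the 10 wild-type libraries at each time of lipid A, 9 histone genes at 5 times gave 45 groups, and in 9 of them the highest or lowest library lay far from the others by Dixon's test at 95%, where chance gives about 1 in 20. In 8 of these the library was replicate 1 of the Nfkbid series. It had Hist3h2a at 16.4 RPKM at 0 h (next highest 4.91), 13.4 at 0.5 h (2.70) and 13.5 at 6 h (5.74). It had Hist1h1c at 14.6 at 0.5 h (6.96) and 12.8 at 1 h (4.64), and Hist2h2be at 2.10 at 0.5 h (0.634), 1.21 at 1 h (0.219) and 0.863 at 2 h (0.194). The ninth was Hist1h1a at 0.5 h, at 7.73 in replicate 3 of the Nfkbid series (next highest 3.97).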

How the results depend on the processing

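Most members hold few reads, shared sequence is common, and 2 polyA libraries or 2 replicates carry several calls. Shares in brackets are those of all genes in the same fit. For polyA against chromatin RNA, the 2 genes higher (85.9%) became 1 with a pseudocount of 1 (83.7%). Without a filter 8 of 62 tested were higher (42.4%), with a filter of 3 RPKM 1 (91%) and with median centring 0 (18.4%). The 4 lower (1.32%) became 20 with centring (22.7%) and 6 with the fixed values of the mRNA series set to 0 (3.82%). The fit with the mRNA library alone is given above. Hist1h4i turned to −1.52 with centring, by construction of that scaling. For the wild-type course, the 8 lower (29.9%) became 14 with a pseudocount of 0.1 (53.9%) and 5 with centring (9.49%). Within 1 series alone they were 2 in Nfkb1 (36.2%), 13 in Nfkbiz (40.4%), 6 in Bcl3 (46.4%) and 0 in Nfkbid (1.56%). When 1 replicate was left out they were 6 to 11 (28.2% to 37.7%). In Nfkbiz knockouts the 5 lower (4.26%) became 1 with a pseudocount of 1 (2.66%), 0 without a filter (1.11%) and 2 with centring (2.56%). Leaving out 1 replicate there leaves 1 library in a group, as given above. For the Bcl3 knockout, the 0 lower (0%) stayed 0 with the other pseudocounts, filters and centring. The cause of these changes was not tested. With a replicate block the pairing changed no count by over 1.5 times: the wild-type course gave 8 (11 without replicate 1 of the Nfkbid series), Nfkbiz 5 and the other knockouts 0. The fits of J2 cells without a double-knockout replicate leave no residual degrees of freedom and gave no value.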
